A study of Homo sapiens with 8 samples.

Results

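CYTOR and MIR4435-2HG are long noncoding RNA genes on opposite arms of human chromosome 2 that carry near-identical stretches of sequence. Their levels were followed in 2 liver cancer cell lines, HepG2 and LM3, treated with JQ1 or with the vehicle DMSO. The pair was taken as every locus whose Ensembl gene ID maps to either symbol, which gave 2 of the 23161 loci listed, both among the 15469 loci with values. The loci are those that the authors listed for lncRNA expression, so sums, shares and ranks given here leave out coding genes. Total RNA depleted of ribosomal RNA was sequenced from both ends, and 8 libraries fall into 4 groups of 2: HepG2 with JQ1, HepG2 with vehicle, LM3 with JQ1 and LM3 with vehicle. No genotype change is given for either line, and the dose of JQ1 and the time of treatment were not given in the sources used here. Labels do not say whether the replicates are separate cultures, and p-values here reflect only the variation among these libraries, which may be technical.

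JQ1 is a small molecule that occupies the bromodomains of BET proteins and displaces them from acetylated chromatin, and super-enhancers, dense groups of enhancers, are known to be sensitive to it. CYTOR (cytoskeleton regulator RNA) is known in several cancers, liver cancer among them, as an RNA whose loss slows growth and migration. MIR4435-2HG is named as a host gene of the microRNA miR-4435, and its mouse counterpart, Morrbid, is known for controlling the lifespan of short-lived myeloid cells through the neighbouring gene of the pro-apoptotic protein Bim. A read from a stretch that both genes share cannot be assigned to either by sequence, and how such reads were counted is not given in the sources used here.

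CYTOR (ENSG00000222041) lay at chr2:87454781-87636740 on the plus strand of GRCh38, and MIR4435-2HG (ENSG00000172965) at chr2:111006015-111523376 on the minus strand, as the files give them. In GENCODE release 29 the same CYTOR coordinates were listed. For MIR4435-2HG the 5′ end, 111523376, was the same, whereas the 3′ end, its lowest coordinate, was 111036776. CYTOR had 38 annotated transcripts in that release, of 323 to 7512 bases (median 734), and MIR4435-2HG had 25, of 413 to 3565 bases (median 759). The exons covered 17693 bases of CYTOR in 25 blocks and 13094 bases of MIR4435-2HG in 26 blocks. The transcripts CYTOR-204 and MIR4435-2HG-214, each 560 bases long with 4 exons, differ at 1 base in their whole length. This pair was picked for its likeness, as the longest alignment without gaps that spans both transcripts in full. The likeness over all transcripts, given below, is less. The substitution is T168C, with the CYTOR base first and positions counted from 1 at the 5′ end of the transcript. It lies in exon 1 of both transcripts. The stretches below, from GENCODE release 29, run over bases 118 to 218 of each transcript, cross from exon 1 into exon 2, and carry the differing base as the capital.
CYTOR-204: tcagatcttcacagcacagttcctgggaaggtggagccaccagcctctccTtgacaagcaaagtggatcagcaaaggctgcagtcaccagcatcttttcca
MIR4435-2HG-214: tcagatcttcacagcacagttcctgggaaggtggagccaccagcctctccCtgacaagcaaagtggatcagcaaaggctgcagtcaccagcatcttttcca
Any read that misses this base is the same for both transcripts.

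The RefSeq promoter windows (GRCh38.p14), from 250 bases before to 50 bases after each gene's RefSeq start, also share sequence. Both windows lie inside the gene spans given above, so the RefSeq starts are not the 5′ ends of the loci whose levels were measured. The windows are shown because both genes were lower with JQ1, as given below, and whether these starts were in use here was not tested. The CYTOR window is chr2:87455177-87455476 on the plus strand, the MIR4435-2HG window is chr2:111495112-111495411 on the minus strand, and capitals mark TGAGTCA, the binding element of the transcription factor AP-1.
CYTOR: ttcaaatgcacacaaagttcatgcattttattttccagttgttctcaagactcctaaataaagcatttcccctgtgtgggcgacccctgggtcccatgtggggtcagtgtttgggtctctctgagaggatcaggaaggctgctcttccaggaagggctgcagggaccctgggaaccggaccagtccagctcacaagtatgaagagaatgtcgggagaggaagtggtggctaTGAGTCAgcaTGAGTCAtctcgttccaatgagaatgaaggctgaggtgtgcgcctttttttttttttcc
MIR4435-2HG: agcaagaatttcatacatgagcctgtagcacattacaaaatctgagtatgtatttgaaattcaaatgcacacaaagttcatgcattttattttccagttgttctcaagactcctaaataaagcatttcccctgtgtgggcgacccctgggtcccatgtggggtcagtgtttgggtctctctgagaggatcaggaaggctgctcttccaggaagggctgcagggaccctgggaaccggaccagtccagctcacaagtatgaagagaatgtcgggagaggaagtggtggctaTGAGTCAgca
Bases 1 to 241 of the CYTOR window are identical to bases 60 to 300 of the MIR4435-2HG window, so the RefSeq starts are offset by 59 bases within the same sequence. TGAGTCA (reverse complement TGACTCA, both strands searched) began at -19 and -9 from the start of CYTOR and at 41 after the start of MIR4435-2HG. The MIR4435-2HG window ends 3 bases after its element, so the place of the next CYTOR element is outside it. Of 35116 promoter windows of the same length, 4.95% held this element and 0.222% held it 2 or more times. CACGTG (the E-box, in 7.26% of all windows), TATAAA (the TATA box, 11.5%) and TGACGTCA (the cyclic AMP response element, 1.85%) had 0 matches in both windows. These matches are letters in a window, and no binding was measured.

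Both genes also hold a copy of the hairpin of miR-4435, and the mature RNA made from either is the same, so its copies cannot be told apart by sequence. The mature sequence from RefSeq has its seed, bases 2 to 8, in capitals, and in each hairpin the capitals mark the mature part.
hsa-miR-4435: aUGGCCAGagcucacacagagg
MIR4435-1: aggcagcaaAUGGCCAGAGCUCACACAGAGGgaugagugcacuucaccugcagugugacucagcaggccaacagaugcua
MIR4435-2: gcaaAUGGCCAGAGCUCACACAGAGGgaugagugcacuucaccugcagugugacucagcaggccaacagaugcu
MIR4435-1 (80 bases, chr2:87629755-87629834, plus strand) overlapped an exon of CYTOR. MIR4435-2 (74 bases, chr2:111321013-111321086, minus strand) lay inside the span of MIR4435-2HG but in no annotated exon, and its whole sequence was found in MIR4435-1. No other mature microRNA in the RefSeq table had this seed. The mature microRNA was not measured in these libraries.

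Across all annotated transcripts the likeness was uneven. Of 19682 distinct windows of 100 bases in the CYTOR transcripts and 14568 in those of MIR4435-2HG, 2077 were identical, which is 10.6% of the CYTOR windows and 14.3% of the MIR4435-2HG windows. At a looser limit, alignments of at least 100 bases and 98% identity, 49.99% of the summed CYTOR transcript bases and 51.6% of those of MIR4435-2HG had a match in the other gene. The median CYTOR transcript was covered over 62.1% of its bases and the median MIR4435-2HG transcript over 78.8%. Coverage reached at least 90% in 9 CYTOR transcripts and in 10 MIR4435-2HG transcripts, while 1 CYTOR transcript and 3 MIR4435-2HG transcripts had no such alignment. The longest alignment joined CYTOR-216 and MIR4435-2HG-222 over 2254 bases at 99.2% identity, with 14 mismatches. Each gene thus has annotated transcripts with little or no match in the other and transcripts that match it almost throughout.

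**Figure D1:**
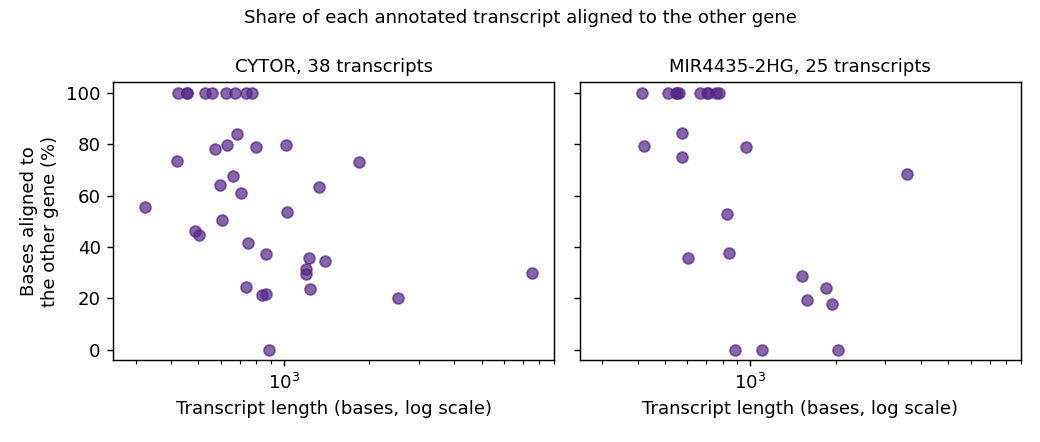
Share of each annotated transcript's bases in alignments of at least 98% identity and 100 bases to the other gene (vertical axis, percent) against transcript length (horizontal axis, bases, log scale), for the 38 transcripts of CYTOR and the 25 of MIR4435-2HG, 1 point each. Transcripts at or near full coverage are all under 1000 bases long in both genes, and 1 CYTOR and 3 MIR4435-2HG transcripts lie at 0.

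Overall levels were taken as FPKM sums, which do not show depth. FPKM (fragments normalised for transcript length and sequencing depth, thus a level per length) summed over the loci with values to between 31309 and 32765 with JQ1 and between 29369 and 30699 with vehicle in HepG2, and to between 34148 and 34771 with JQ1 and between 34066 and 35742 with vehicle in LM3. Read totals were not given in the sources used here, so the depth is unknown. Across loci, Pearson's r of log2 values between the replicates of a group was 0.975 to 0.983. The liver lncRNA H19 averaged 2168 FPKM with JQ1 and 2143 FPKM with vehicle in HepG2, and 329 FPKM with JQ1 and 329 FPKM with vehicle in LM3, but most of the 8 liver lncRNAs with values were low, with 3 of them at a mean of 0.5 FPKM or more in HepG2 with JQ1, 4 in HepG2 with vehicle, 2 in LM3 with JQ1 and 3 in LM3 with vehicle. CPS1-IT1, which lies within a gene of the urea cycle, averaged 1.27 FPKM with JQ1 and 6.82 FPKM with vehicle in HepG2, and 0.335 FPKM with JQ1 and 1.38 FPKM with vehicle in LM3. LINC01485 averaged 0.37 FPKM with JQ1 and 0.96 FPKM with vehicle in HepG2, and 0.02 FPKM with JQ1 and 0.045 FPKM with vehicle in LM3. HULC averaged 0.6 FPKM with JQ1 and 0.715 FPKM with vehicle in HepG2, and 0.56 FPKM with JQ1 and 0.555 FPKM with vehicle in LM3. LINC01554 was higher with JQ1, at 0.305 against 0.21 FPKM with vehicle in HepG2 and 0.215 against 0.145 FPKM in LM3. The part of these liver markers in the results for CYTOR and MIR4435-2HG was not tested.

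In HepG2, both genes were abundant and both were lower with JQ1. CYTOR had 51.7 and 56.2 FPKM in the JQ1 libraries, against 75.1 and 74.3 FPKM in the vehicle libraries. MIR4435-2HG had 71.3 and 67.5 FPKM in the JQ1 libraries, against 99.1 and 97.2 FPKM in the vehicle libraries. For each gene every JQ1 library lay below every vehicle library. CYTOR averaged 54.0 ± 3.24 FPKM with JQ1 and 74.7 ± 0.559 FPKM with vehicle (SD, n = 2 each), a percent change of -27.7. MIR4435-2HG averaged 69.4 ± 2.72 FPKM with JQ1 and 98.2 ± 1.32 FPKM with vehicle, a percent change of -29.3. On the log2(FPKM + 0.5) scale, CYTOR fell by 0.47 (SE 0.076, limma adjusted p = 0.0195), and MIR4435-2HG fell by 0.50 (SE 0.070, limma adjusted p = 0.0142). Both falls passed the threshold of 0.05, where 14.2% of the 5906 HepG2 loci tested were called lower and 25.1% were called in either direction. A pattern of both JQ1 libraries below both vehicle libraries was found in 33.9% of these loci. Against all loci tested, 15.2% had a more negative log2 fold change than CYTOR and 13.8% a more negative one than MIR4435-2HG, whereas the median locus was at -0.0056.

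In HepG2 the calls were mostly lost when 1 library was left out, whichever it was, while the log2 fold changes stayed negative. With any 1 of the 4 left out CYTOR missed the threshold, with log2 fold changes of -0.53 to -0.41 and limma adjusted p = 0.0596 to 0.106. MIR4435-2HG kept its call only without vehicle replicate 2, at limma adjusted p = 0.0489, and with each of the other 3 libraries left out it was 0.0534 to 0.0936. Over these fits its log2 fold change was -0.54 to -0.46. No locus at all was called by limma in HepG2 with either JQ1 library left out, although an unadjusted p under 0.05 was found for 1770 and 1679 loci.

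LM3 gave falls of the same direction in both genes. CYTOR had 49.5 and 46.4 FPKM in the JQ1 libraries, against 76.8 and 73.1 FPKM in the vehicle libraries. MIR4435-2HG had 74.9 and 69.5 FPKM in the JQ1 libraries, against 111 and 108 FPKM in the vehicle libraries. As in HepG2, the JQ1 and vehicle libraries did not overlap for either gene. Mean levels were 47.9 ± 2.21 FPKM with JQ1 and 74.9 ± 2.56 FPKM with vehicle for CYTOR (SD, n = 2 each), a percent change of -36.1. For MIR4435-2HG they were 72.2 ± 3.84 FPKM with JQ1 and 109 ± 1.91 FPKM with vehicle, a percent change of -34.0. CYTOR fell by 0.64 on the log2 scale (SE 0.085, limma adjusted p = 0.0146) and MIR4435-2HG fell by 0.60 (SE 0.084, limma adjusted p = 0.0165). Of the 6474 LM3 loci tested, 15.4% were called lower and 23.3% were called in either direction, and in 39.7% both JQ1 libraries lay below both vehicle libraries. A more negative log2 fold change than that of CYTOR was found in 12.4% of the loci, and than that of MIR4435-2HG in 14.2%, with the median locus at -0.084.

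In LM3 the calls of both genes were lost with any 1 of the 4 libraries left out. Leaving out any of them gave limma adjusted p = 0.0630 to 0.137 for CYTOR, at log2 fold changes of -0.69 to -0.59, and 0.0623 to 0.144 for MIR4435-2HG, at log2 fold changes of -0.65 to -0.54. No locus at all was called by limma in LM3 in these fits, where 1525 to 2365 loci had an unadjusted p under 0.05. Of the loci called in LM3, 34.0% were higher with JQ1, a share that came to 47.6% with libraries centred on their medians and to 49.4% after quantile normalization. Both genes were called lower under these scalings too, where 770 (centred) and 732 (quantile) of the 6474 loci tested were called lower.

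**Figure D2:**
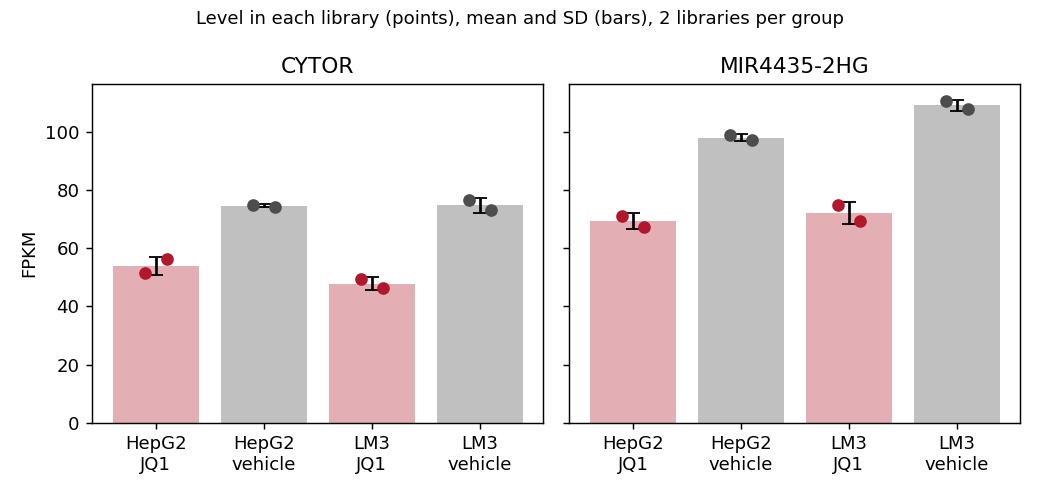
FPKM of CYTOR (left) and MIR4435-2HG (right) in the 8 libraries, by group. Points are libraries, bars the mean of 2 libraries and error bars the SD, and in each line both JQ1 points lie below both vehicle points for each gene.

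A share of the signal outside the pair moved with treatment in both lines. Shares here are of the FPKM summed over the loci with values, a sum that leaves out coding genes. In HepG2 the 34 ribosomal DNA and mitochondrial loci took up 17.1% and 18.1% of it in the JQ1 libraries and 15.3% and 15.9% in the vehicle libraries. In LM3 the same 34 loci took up 21.2% and 22.8% in the JQ1 libraries and 18.9% and 19.6% in the vehicle libraries. With every library rescaled to its sum outside those loci, a setting added after the data were seen, the log2 fold change of CYTOR was -0.52 in HepG2 (limma adjusted p = 0.0122) and -0.57 in LM3 (adjusted p = 0.0219). That of MIR4435-2HG was -0.56 in HepG2 (limma adjusted p = 0.0136) and -0.53 in LM3 (adjusted p = 0.0232), so both genes were called lower after this rescaling too. With the same rescaling, 957 of the 5899 loci tested in HepG2 and 842 of the 6457 tested in LM3 were called lower. In bulk RNA, fewer cells that hold an RNA and less of it per cell cannot be told apart.

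The response was not shown to differ between the lines. The log2 fold change in LM3 minus that in HepG2 was -0.17 for CYTOR (SE 0.11, limma adjusted p = 0.588) and -0.10 for MIR4435-2HG (SE 0.10, limma adjusted p = 0.739). Among the 5035 loci tested for this difference 0.218% were called, 0.199% with a lower value in LM3 and 0.0199% with a higher one. The sign for MIR4435-2HG turned under other scalings, to 0.22 after quantile normalization and to 0.026 after the rescaling outside ribosomal DNA and mitochondrial loci.

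By mean level among the 9585 Ensembl loci with values, which leave out coding genes, MIR4435-2HG ranked 12th in HepG2 with JQ1 and 9th in HepG2 with vehicle. In LM3 it ranked 13th with JQ1 and 11th with vehicle. CYTOR ranked 19th in HepG2 with JQ1 and 15th with vehicle, and 25th in LM3 with JQ1 and 14th with vehicle. Among all 15469 loci with values, MIR4435-2HG ranked 44th with JQ1 and 22nd with vehicle in HepG2, and 49th and 36th in LM3. On that scale CYTOR ranked 63rd with JQ1 and 41st with vehicle in HepG2, and 84th and 50th in LM3. Ordered by mean FPKM, the levels ran from CYTOR in LM3 with JQ1 (47.9) and in HepG2 with JQ1 (54.0), through MIR4435-2HG with JQ1 in HepG2 (69.4) and LM3 (72.2) and CYTOR with vehicle in HepG2 (74.7) and LM3 (74.9), to MIR4435-2HG with vehicle in HepG2 (98.2) and LM3 (109). Neighbours in this order whose libraries overlapped were MIR4435-2HG with JQ1 in the lines and CYTOR with vehicle in the lines, and the MIR4435-2HG libraries of LM3 with JQ1 (69.5 and 74.9) also overlapped the CYTOR vehicle libraries of HepG2 and LM3. Levels were not tested across lines, because the tables may have been normalized separately.

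Because a read from shared sequence may have been given to either gene, the pair was also read as a sum. The summed FPKM was 123 and 124 in the JQ1 libraries and 174 and 172 in the vehicle libraries of HepG2, and 124 and 116 in the JQ1 libraries and 187 and 181 in the vehicle libraries of LM3. The JQ1 and vehicle libraries did not overlap in either line. As a single locus, the sum had log2 fold changes of -0.48 in HepG2 (SE 0.066, limma adjusted p = 0.0136) and -0.62 in LM3 (SE 0.083, limma adjusted p = 0.0150). Its difference between the lines was -0.13 (SE 0.099, limma adjusted p = 0.644). Within the tables the pair made up 0.393% and 0.378% of the FPKM in the JQ1 libraries and 0.567% and 0.584% in the vehicle libraries of HepG2, and 0.364% and 0.333% in the JQ1 libraries and 0.550% and 0.507% in the vehicle libraries of LM3. Since FPKM is scaled by the length of each gene, the sum is free of how shared reads were divided only as far as those lengths are alike and each read was counted once.

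MIR4435-2HG was above CYTOR in all 8 libraries, and the genes were also compared by their ratio, which does not depend on the scale of a library. The ratio does depend on how reads from shared sequence were counted and on the lengths used for FPKM. The part of such counting in its level and in its steadiness was not tested. The ratio of MIR4435-2HG FPKM to CYTOR FPKM was 1.38 and 1.20 in the JQ1 libraries and 1.32 and 1.31 in the vehicle libraries of HepG2. In LM3 it was 1.51 and 1.498 in the JQ1 libraries and 1.44 and 1.48 in the vehicle libraries. In HepG2 the JQ1 libraries stood on both sides of the vehicle libraries, whereas in LM3 they were both above them. The log2 ratio with JQ1 minus that with vehicle was -0.031 in HepG2 (two-sided exact permutation p = 1) and 0.046 in LM3 (exact permutation p = 0.333), where 0.333 is the smallest p that 6 arrangements allow. Over both lines, with treatment permuted within each, the mean difference was 0.0074 (exact permutation p = 0.944, with a smallest possible p of 0.0556). At this number of libraries no change of the ratio was detectable, and the design cannot reach 0.05. All 4 LM3 ratios, 1.44 to 1.51, were above all 4 HepG2 ratios, 1.20 to 1.38, which was noticed after the values were seen and is given as a description.

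**Figure D3:**
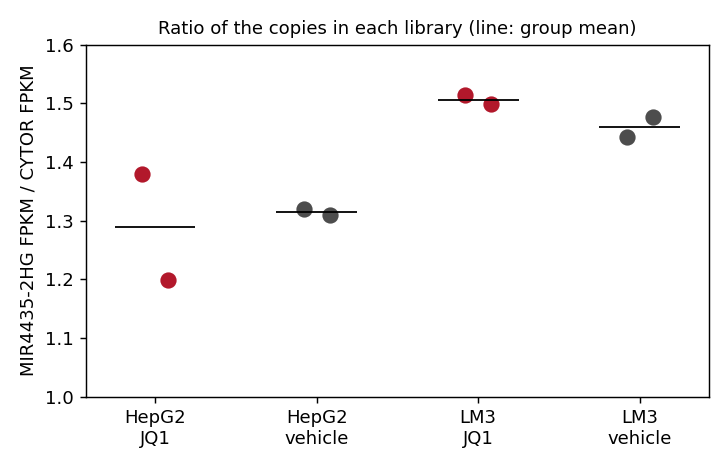
MIR4435-2HG FPKM divided by CYTOR FPKM in each of the 8 libraries (vertical axis, ratio, from 1.0), by group. Points are libraries and lines the group means, and the LM3 points, 1.44 to 1.51, lie above the HepG2 points, 1.20 to 1.38. The HepG2 JQ1 points, 1.38 and 1.20, stand on both sides of the vehicle points.

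Several loci share the ground of these genes, and their values are uncertain to the extent that reads were divided between them. MIR4435-2HG overlapped 7 other loci with values, 6 on its own strand, of which 3 were tested. LXLOC_032555, a locus named by the authors at chr2:111314104-111523376 on the minus strand, shares its highest coordinate with MIR4435-2HG. It had 1.41 and 1.67 FPKM in the JQ1 libraries and 2.55 and 2.39 FPKM in the vehicle libraries of HepG2, and 2.83 and 2.55 FPKM in the JQ1 libraries and 4.68 and 4.69 FPKM in the vehicle libraries of LM3. It fell in both lines, with log2 fold changes of -0.54 in HepG2 (limma adjusted p = 0.0270) and -0.70 in LM3 (limma adjusted p = 0.0141). ENSG00000270190 and ENSG00000271590 are short loci inside the span, each at a mean under 2 FPKM. ENSG00000270190 had log2 fold changes of -0.64 in HepG2 (limma adjusted p = 0.0876) and -0.55 in LM3 (adjusted p = 0.0937). For ENSG00000271590 they were -0.15 in HepG2 (limma adjusted p = 0.633) and -0.49 in LM3 (adjusted p = 0.0566), so neither locus passed the threshold.

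CYTOR overlapped 3 other loci with values. NCAL1 (ENSG00000284879, chr2:87455476-87767359), on the same strand, starts inside CYTOR and runs past its end. Its level was 1.39 and 1.30 FPKM in the JQ1 libraries and 1.53 and 1.77 FPKM in the vehicle libraries of HepG2, and 1.59 and 1.26 FPKM in the JQ1 libraries and 1.94 and 1.72 FPKM in the vehicle libraries of LM3. Its log2 fold changes of -0.22 in HepG2 (limma adjusted p = 0.188) and -0.28 in LM3 (limma adjusted p = 0.177) did not pass the threshold. The NCAL1 transcripts hold 338 of the 100-base windows of CYTOR and 238 of those of MIR4435-2HG, 1.72% and 1.63% of each gene's windows. Other annotated genes hold such windows too. AC068491.4 holds 660 of those of CYTOR (3.35%) and AC017002.1 holds 387 (1.97%), while AC017002.6 holds 201 of those of MIR4435-2HG (1.38%). LINC01943 and ENSG00000273445, on the opposite strand of CYTOR, were below the filter of 0.5 FPKM in both lines, as was SOCAR on the opposite strand of MIR4435-2HG. Whether the counting used strand is not given in the sources used here. Among these loci the highest group mean was 0.40 FPKM, for LINC01943 in HepG2 with vehicle.

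Within 500 kb on either side, lncRNA loci that did not overlap the pair gave no common direction. Near CYTOR there were 5 with values and 2 were tested. LXLOC_032298, a locus named by the authors at chr2:88015695-88016537 on the minus strand, had 2.72 and 4.14 FPKM in the JQ1 libraries and 1.05 and 0.54 FPKM in the vehicle libraries of HepG2, and 3.73 and 4.06 FPKM in the JQ1 libraries and 0.89 and 1.30 FPKM in the vehicle libraries of LM3. It rose on the log2 scale by 1.61 in HepG2 (limma adjusted p = 0.0215) and by 1.47 in LM3 (limma adjusted p = 0.0110), opposite to CYTOR. The pseudogene ANAPC1P2 had log2 fold changes of 0.17 (limma adjusted p = 0.434) in HepG2 and 0.18 (adjusted p = 0.295) in LM3. Near MIR4435-2HG, of 4 loci with values, 3 were tested and none was called or had an unadjusted limma p under 0.05, with log2 fold changes of -0.25 to 0.16 in HepG2 and of -0.01 and 0.26 in LM3. The coding genes around MIR4435-2HG were not analysed here.

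**Figure D4:**
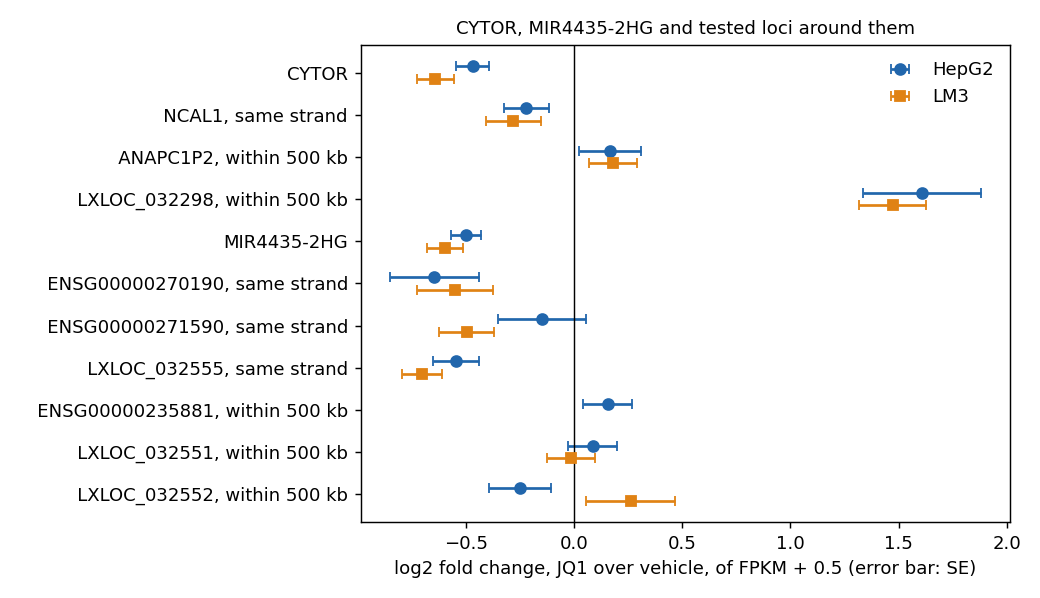
Log2 fold change of FPKM + 0.5, JQ1 over vehicle, in HepG2 (circles) and LM3 (squares), with error bars for the SE, for CYTOR, MIR4435-2HG and the tested loci that overlap each on its strand or lie within 500 kb. CYTOR, MIR4435-2HG and the 4 tested loci that overlap them on the same strand lie left of 0 in both lines, with CYTOR, MIR4435-2HG and LXLOC_032555 past the threshold, and LXLOC_032298, at 1.61 and 1.47, lies right of it.

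The locus whose 8 values were most like those of CYTOR was MIR4435-2HG, and the reverse also held. Likeness was the Euclidean distance between the 8 log2 values, each centred on the vehicle mean of its line, over 139 named Ensembl loci whose mean reached 5 FPKM in each line. The distance between CYTOR and MIR4435-2HG was 0.163. Next to CYTOR came SNHG20, a host of small nucleolar RNA (0.174), LINC00294 (0.222) and C10orf95-AS1 (0.242). Next to MIR4435-2HG came C10orf95-AS1 (0.192), LINC01089 (0.207) and LINC00294 (0.207). SNHG20 had 8.39 and 9.07 FPKM in the JQ1 libraries and 12.7 and 11.8 FPKM in the vehicle libraries of HepG2, and 4.92 and 5.18 FPKM in the JQ1 libraries and 8.33 and 8.65 FPKM in the vehicle libraries of LM3. LINC00294 had 6.27 and 6.07 FPKM in the JQ1 libraries and 8.26 and 8.51 FPKM in the vehicle libraries of HepG2, and 8.59 and 9.35 FPKM in the JQ1 libraries and 14.0 and 13.4 FPKM in the vehicle libraries of LM3. These loci were picked by the values compared here and were given no test. The part of shared reads in the likeness of CYTOR and MIR4435-2HG was not tested.

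Other microRNA host lncRNAs give a setting for MIR4435-2HG. Of 81 listed, 65 had values and 26 were tested in HepG2, where 6 fell, 2 rose and 18 did not pass the test. Of all loci tested there, 14.2% were called lower and 10.8% higher with JQ1. The median log2 fold change of the hosts was -0.12, against -0.0056 for all loci tested, and MIR4435-2HG was at -0.50. In LM3, 27 were tested, of which 4 fell, 1 rose and 22 did not pass, with a median of -0.21 against -0.084 for all loci tested and -0.60 for MIR4435-2HG. Of all loci tested in LM3, 15.4% were called lower and 7.92% higher. MIR100HG and MIR99AHG, hosts of related microRNA clusters of the let-7 and miR-125 families, fell in both lines. MIR100HG had 15.4 and 16.6 FPKM in the JQ1 libraries and 31.3 and 28.6 FPKM in the vehicle libraries of HepG2, and 15.2 and 17.0 FPKM in the JQ1 libraries and 38.0 and 39.8 FPKM in the vehicle libraries of LM3 (log2 fold changes -0.88 and -1.25, limma adjusted p = 0.00836 and 0.00734). MIR99AHG had log2 fold changes of -1.11 in HepG2 (limma adjusted p = 0.00697) and -1.498 in LM3 (adjusted p = 0.0150). These values are further from 0 than those of MIR4435-2HG, a difference that was not tested. MIR17HG, the host of an oncogenic microRNA cluster, fell by 0.92 in HepG2 (limma adjusted p = 0.00705), and its value in LM3 was -0.55 (adjusted p = 0.0703). MIR1915HG fell in both lines, with log2 fold changes of -0.88 in HepG2 (limma adjusted p = 0.00797) and -0.44 in LM3 (adjusted p = 0.0338). MIR34AHG, host of a p53 target microRNA, was called in LM3, where it fell by 0.86 (limma adjusted p = 0.0201), and its HepG2 value was -0.14 (adjusted p = 0.447). The difference between the lines did not pass for MIR34AHG (limma adjusted p = 0.234) or for MIR17HG (limma adjusted p = 0.495).

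CYTOR was set beside a list of lncRNAs named for growth in liver cancer, GAS5 among them, and the role of each member was not checked here. Of 34 names listed, with HOXD-AS1 and HAGLR entered separately, 30 had values. In HepG2, 26 were tested, of which 7 fell, 2 rose and 17 did not pass, and in LM3, 28 were tested, of which 7 fell, 4 rose and 17 did not pass. Over all loci tested the shares called were 14.2% lower and 10.8% higher in HepG2, and 15.4% lower and 7.92% higher in LM3. Median log2 fold changes were -0.12 in HepG2 and -0.20 in LM3, beside -0.0056 and -0.084 for all loci tested and -0.47 and -0.64 for CYTOR. PVT1, the neighbour of MYC, had 55.1 and 58.0 FPKM in the JQ1 libraries and 89.7 and 92.5 FPKM in the vehicle libraries of HepG2, and 50.5 and 50.8 FPKM in the JQ1 libraries and 81.8 and 84.1 FPKM in the vehicle libraries of LM3. The log2 fold changes of PVT1 were -0.68 in HepG2 (limma adjusted p = 0.00873) and -0.71 in LM3 (adjusted p = 0.0110). SBF2-AS1, antisense to the gene SBF2, had values of -1.17 in HepG2 (limma adjusted p = 0.00838) and -1.63 in LM3 (adjusted p = 0.00657). CASC19 fell too, with log2 fold changes of -1.24 in HepG2 (limma adjusted p = 0.00705) and -0.39 in LM3 (adjusted p = 0.0355). NEAT1, the scaffold of nuclear paraspeckles, rose in both lines, by 0.98 in HepG2 (limma adjusted p = 0.00864) and by 0.64 in LM3 (adjusted p = 0.0122).

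A list of lncRNAs described with EGFR, NF-kB, TGF-beta or hypoxia signalling, pathways with which CYTOR has been linked, had 19 of 22 members with values and shares NEAT1, PVT1, LUCAT1 and others with the growth list. In HepG2, 10 were tested, of which 4 fell, 2 rose and 4 did not pass, with a median of -0.09. In LM3, 12 were tested, of which 6 fell, 1 rose and 5 did not pass, with a median of -0.40. The shares called over all loci (14.2% lower and 10.8% higher in HepG2, 15.4% lower and 7.92% higher in LM3) and the medians over all loci (-0.0056 and -0.084) apply here too. LUCAT1, a stress-induced lncRNA, had log2 fold changes of -0.70 in HepG2 (limma adjusted p = 0.0103) and -1.02 in LM3 (adjusted p = 0.0110). FENDRR, which lies beside FOXF1, fell with log2 fold changes of -1.48 in HepG2 (limma adjusted p = 0.00513) and -1.34 in LM3 (adjusted p = 0.00565). FENDRR is also the only 1 of 4 fibroblast, muscle and endothelial lncRNAs with values that reached a mean of 0.5 FPKM. The summed level of those 4 was 2.89 to 3.01 FPKM with JQ1 and 8.50 to 9.34 FPKM with vehicle in HepG2, and 1.39 to 1.45 FPKM with JQ1 and 3.62 to 3.68 FPKM with vehicle in LM3. MEG3 and CARMN, 2 others of these 4, had means of at most 0.29 FPKM in every group. The blood and immune lncRNAs (4 with values) summed to 0.75 to 1.14 FPKM over all libraries, nearly all of it LINC00926, and MIR142HG was at a mean of 0.03 FPKM or less. The neural lncRNAs (3 with values) summed to 0.40 to 0.47 FPKM with JQ1 and 0.45 to 0.49 FPKM with vehicle in HepG2, and to 0.40 to 0.42 FPKM with JQ1 and 0.71 to 0.84 FPKM with vehicle in LM3, where the groups did not overlap. The part of these other-cell markers in the falls of CYTOR and MIR4435-2HG was not tested.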

How the data were processed

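Libraries came from rRNA-depleted total RNA with paired-end sequencing, per the labels' protocols. The values are FPKM deposited by the authors, per the file headers, in a table for each line, with 2 decimals; the submitters' processing notes name Bowtie 0.12.2, hg19 and mm8, with no role for each. Coordinates matched GRCh38: the lowest coordinate was the same for 85.7% of 14860 Ensembl IDs present in GENCODE release 29. The counting tool, its handling of reads that match both genes and its strand setting were not given in the sources used here. Vehicle columns are headed DMSO in the tables.

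JQ1 was compared with vehicle within each line in limma 3.58.1 (R 4.3.3, trend and robust fitting, two-sided) on log2(FPKM + 0.5), keeping loci that averaged at least 0.5 FPKM across the line's 4 libraries, with Benjamini-Hochberg adjustment over all loci tested and a threshold of 0.05. Fold changes are on that scale, which understates changes of low loci. The lines' responses were compared in 1 fit over all 8 libraries, for loci past the filter in both tables. Ratios were tested by exact permutation. Transcripts were aligned with BLAST+ 2.17.0. Low values were searched for steps of whole fragments, but at most 52.9% of them per library lay within 0.1 of a step, so no count model was run. Scripts for limma were first tested on simulated data.

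Named loci were CYTOR and MIR4435-2HG, the 4 loci nearest to each in pattern, tested loci that overlap or lie within 500 kb, and the 4 called members of lowest p, or fewer, from each list in each line. The genes and lists were chosen with earlier results of these data known. Alternatives tried were pseudocounts, filters, scalings, the summed pair, a replicate block, another limma setting and leaving out each library. With 2 libraries a group, the precision of a value is set by how far these libraries vary.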

Additional observations from a re-analysis of the deposited data

How the results depend on the processing

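The falls of CYTOR and MIR4435-2HG with JQ1 kept their direction and stayed under an adjusted p of 0.05 in limma under all 10 settings that used every library. The CYTOR log2 fold change was -0.56 to -0.43 in HepG2 and -0.64 to -0.56 in LM3, and that of MIR4435-2HG was -0.65 to -0.46 and -0.66 to -0.51. Leaving out 1 library, with the lone library assumed to vary like the other group, gave -0.53 to -0.41 for CYTOR and -0.54 to -0.46 for MIR4435-2HG in HepG2, and -0.69 to -0.59 and -0.65 to -0.54 in LM3. Counts of loci called were then 0 to 475 in HepG2, with 0 where either JQ1 library was left out (1770 and 1679 loci at an unadjusted p under 0.05), and 0 in all 4 fits in LM3 (2244 and 2365 such loci without a JQ1 library, 1656 and 1525 without a vehicle library), which shows a loss over all loci and not over these genes alone. The deviations of same-numbered libraries had a correlation of -0.035 in HepG2 and 0.135 in LM3, and no label ties a number to a shared culture or batch, so whether the numbers pair the libraries is not known. With the replicate as a block, limma adjusted p was 0.0288 and 0.0225 in HepG2 and 0.0233 and 0.0249 in LM3 for CYTOR and MIR4435-2HG, and 1453, 1215 and 0 loci were called in HepG2, LM3 and the difference between lines (505 at an unadjusted p under 0.05).

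Without a filter 852 loci were called in HepG2 and 857 in LM3, against 1480 and 1511, and a filter at 1 FPKM gave 975 in HepG2. For the difference between lines (11 called), the count was 7 at a pseudocount of 0.1, 19 at 1, 94 without a filter, 7 at 1 FPKM, 20 centred, 2 after quantile normalization, 17 after rescaling and 0 to 3 without 1 library. Its value for CYTOR was -0.23 to -0.11 without 1 library, -0.042 after quantile normalization, -0.049 after rescaling and -0.10 centred, against -0.17. For MIR4435-2HG it was -0.15 to -0.045, and it turned to 0.22 under quantile normalization and 0.026 under rescaling outside ribosomal DNA and mitochondrial loci; the cause was not tested. The log2 ratio of the genes, JQ1 minus vehicle, ran from -0.13 to 0.070 in HepG2, 0.029 to 0.063 in LM3 and -0.043 to 0.058 over both without 1 library, turning sign over both without HepG2 JQ1 replicate 1 and without LM3 vehicle replicate 1 (-0.0011). With FPKM alone, counting error per gene and the division of shared reads cannot be given.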
